A study of Mus musculus with 12 samples.

Results

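Interferon-stimulated genes were examined in the jejunum of A/J and C57BL/6J (B6) mice after common bile duct ligation (CBDL), which stops bile flow to the intestine, or a sham operation. The list held 43 genes, taken by symbol. Of these, 37 were measured on a probe set that the platform table pairs with a single gene, out of 19938 genes with such a probe set and 35556 probe sets in all. Where a gene had several, the probe set with the highest mean over the 12 arrays was taken. Isg15, Oas1g, Gbp2, Igtp and Ifi47 were found only on probe sets shared with another gene, and Ifi44 was not analysed here, which leaves 6 genes without a value.

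Male mice of both strains, 8 weeks old, were assigned at random to CBDL or sham surgery, and jejunum was taken on day 7. All 4 groups, sham and CBDL of each strain, had the same anesthesia, abdominal incision and analgesia; the duct was neither dissected nor tied in sham mice. Total RNA was hybridized to 12 Affymetrix arrays, 3 for each group, and the values are log2 RMA signals, on which each step of a single unit is a doubling. The deposited table has no detection call, and array medians lay between 5.36 and 5.51. Nothing in the labels says that each array was a separate mouse, so the p-values measure the spread between these arrays.

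Interferons are secreted proteins that warn cells of infection. Type I interferons bind the Ifnar1 and Ifnar2 receptor pair, type III interferons bind Ifnlr1 with Il10rb on epithelial cells, and interferon gamma binds Ifngr1 with Ifngr2. Type I and type III signals activate ISGF3, a complex that includes Stat2 and Irf9 and binds the interferon-stimulated response element (ISRE), whereas interferon gamma acts mainly through STAT dimers at the GAS element. The genes turned on encode RNA sensors, enzymes that degrade RNA or stop translation, proteins that block viral entry or release, and GTPases directed at pathogens inside cells. In the intestine a low level of this program is present in healthy epithelium.

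Promoters carry the element through which these genes respond, so the 250 bases before each RefSeq start (GRCm38.p6) were searched on both strands for the ISRE core, which is GAAA, any 2 bases and GAAA again, and for the GAS core, which is TTC, any 3 bases and GAA. A window was found for 33 of the 43 genes. The ISRE core was present for 15 of them (45.5%), and for 3.46% of all 27025 genes with a window. The GAS core was present for 8 (24.2%), against 8.13% of all genes. Among measured genes with a window, the ISRE core was found for 4 of the 9 that were lower after CBDL over both strains by the test given below and for 7 of the 18 that were not. A match is a description of these letters and not evidence of binding. Stretches around the matches are shown for Ifit3, Ddx60, Bst2, Gbp3 and Irgm1, genes with large or called differences in the comparisons that follow, with every match in capitals. They lie at chr19:34583343-34583446 on the plus strand, chr8:61928004-61928086 on the plus strand, chr8:71537557-71537632 on the minus strand, chr3:142559969-142560043 on the plus strand and chr11:48871421-48871480 on the minus strand, each before 1 RefSeq transcript start and written 5′ to 3′ along the gene. The Ifit3 stretch lies inside the span that RefSeq gives for the gene, and those of Ddx60 and Gbp3 run past the first base of theirs.
Ifit3: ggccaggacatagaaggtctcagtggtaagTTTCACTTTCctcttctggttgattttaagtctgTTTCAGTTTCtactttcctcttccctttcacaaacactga
Ddx60: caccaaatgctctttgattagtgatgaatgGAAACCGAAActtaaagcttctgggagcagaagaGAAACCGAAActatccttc
Bst2: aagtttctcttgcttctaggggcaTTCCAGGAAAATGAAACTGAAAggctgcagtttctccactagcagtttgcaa
Gbp3: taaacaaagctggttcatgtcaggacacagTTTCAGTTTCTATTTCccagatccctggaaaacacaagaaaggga
Irgm1: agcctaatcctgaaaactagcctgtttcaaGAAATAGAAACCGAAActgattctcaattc
Ifit3 and Ddx60 each held a pair of separate ISRE cores, whereas in Gbp3 and Irgm1 the matches overlapped. In Bst2 a GAS core overlapped the first of a pair of overlapping ISRE cores.

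Differences are given on the log2 scale, as CBDL minus sham or A/J minus B6, and a fall is the size of a called decrease. Most interferon-stimulated genes had lower signals after CBDL than after sham surgery. Averaged over A/J and B6 mice, 13 of the 37 measured genes fell (limma, p under 0.05 after Benjamini-Hochberg adjustment across the whole array), 0 rose and 24 did not pass. Of all probe sets, 0.616% were called lower. The genes that fell were Herc6, Dhx58, Ifi27, Ifit3, Zbp1, Ddx60, Oasl2, Ifi35, Bst2, Gbp3, Rigi, Irf7 and Rtp4. The median difference of the 37 genes was -0.39 on the log2 scale, against -0.01 over all probe sets, and 36 of the 37 differences were negative. At an unadjusted p under 0.05, 28 of the 37 were lower and 0 higher, where 6.15% of all probe sets were lower.

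In A/J mice 2 genes fell, Herc6 and Dhx58, and 35 did not pass, with 0.188% of all probe sets called lower. In B6 mice limma called 0 of the 37 genes, with 0.0169% of all probe sets called lower. At an unadjusted p under 0.05, 22 of the 37 were lower in A/J mice and 22 in B6 mice, against 6.30% and 3.77% of all probe sets. None of the 37 was higher at that level in either strain. The median differences were -0.43 in A/J and -0.38 in B6 mice. Both strains had a negative difference for 32 genes (86.5%), compared with 30.1% of all probe sets, and the other 5 went in opposite directions. Every CBDL array was below every sham array for 26 genes in A/J mice (background 9.07% of probe sets) and for 15 in B6 mice (background 7.62%). For 13 genes this held in both strains, where 1.27% of probe sets did so. They were Herc6, Rigi, Dhx58, Ddx60, Oasl1, Ifit3, Bst2, Rtp4, Zbp1, Irf7, Parp9, Ifi27 and Ifi35.

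**Figure D1:**
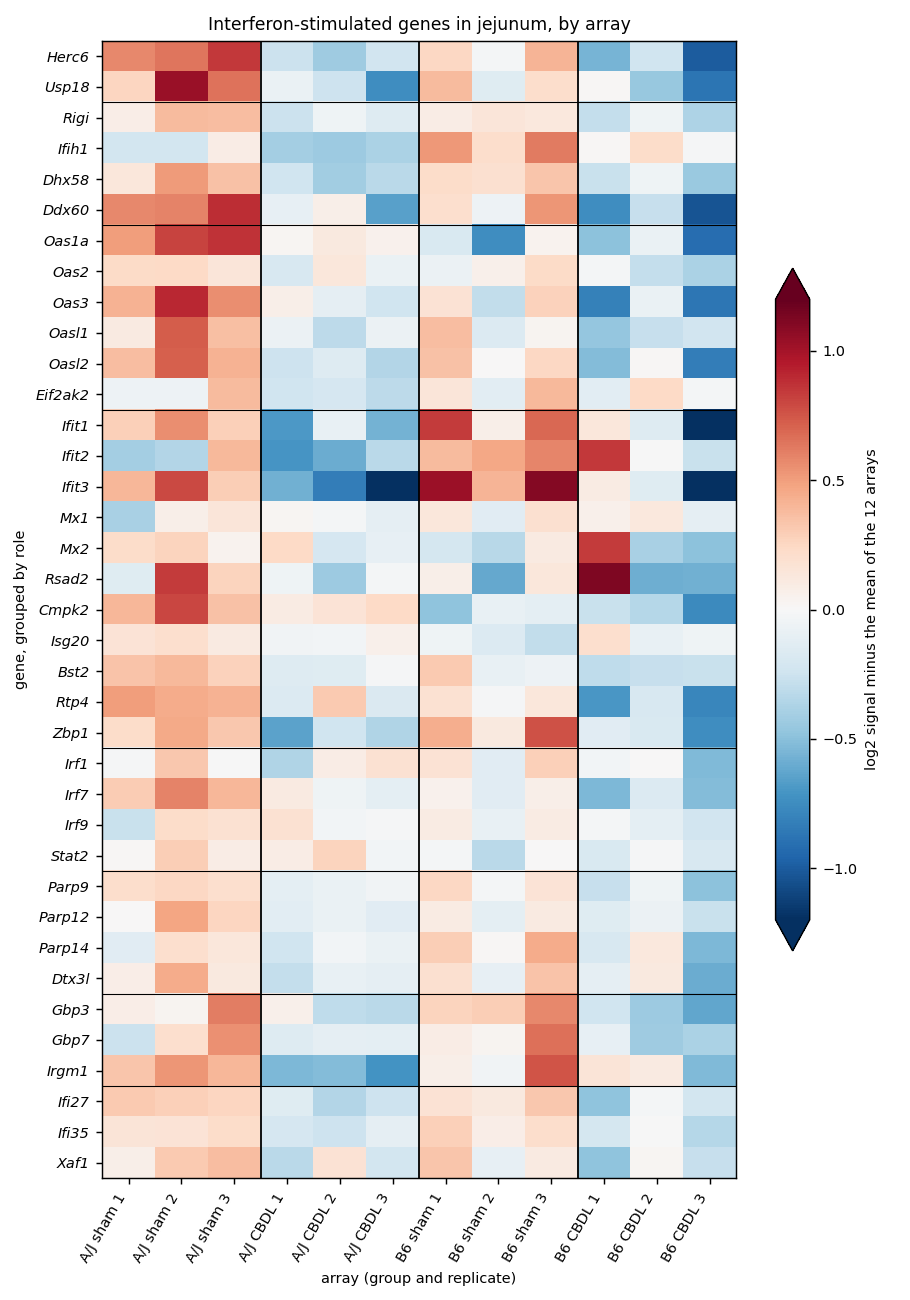
Log2 signal of each of the 37 measured genes (rows, in blocks by role) in each of the 12 arrays (columns, in blocks by group), as the deviation from the gene's mean over all arrays, with red above and blue below. Sham columns are mostly red and CBDL columns mostly blue in both strains, B6 CBDL replicate 3 is the bluest (median deviation -0.49), and B6 sham replicate 2 is near the mean (-0.06).

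The call count depended on which arrays were in the fit. The median deviation of the 37 genes from their mean over all arrays was 0.17, 0.38 and 0.32 in the A/J sham arrays and -0.15, -0.11 and -0.14 in the A/J CBDL arrays. In B6 mice it was 0.19, -0.06 and 0.23 in the sham arrays and -0.18, -0.08 and -0.49 in the CBDL arrays. The A/J sham and CBDL arrays did not overlap in this measure, nor did those of B6 mice, where B6 sham replicate 2 and B6 CBDL replicate 2 were the closest pair. The count over both strains was 3 without A/J sham replicate 2, 4 without B6 sham replicate 1, 5 without B6 CBDL replicate 3 and 6 without A/J CBDL replicate 1. It was 7 without A/J CBDL replicate 2, B6 CBDL replicate 1 or B6 sham replicate 3, and 8 without A/J CBDL replicate 3. The count was 9 without A/J sham replicate 3 or B6 sham replicate 2. It stayed at 13, with partly other genes, without A/J sham replicate 1 or B6 CBDL replicate 2. Each omission also left fewer arrays in 1 group. The median over both strains stayed between -0.43 and -0.36 when any array was left out. Herc6, Dhx58 and Ifi27 were called over both strains whichever array was omitted. Without A/J sham replicate 2 the calls of Ifit3, Zbp1, Ddx60, Oasl2, Ifi35, Bst2, Gbp3, Rigi, Irf7 and Rtp4 all ended. The A/J count of 2 became 0 without any 1 of the A/J CBDL arrays or A/J sham replicate 2 or 3, 1 without A/J sham replicate 1, B6 sham replicate 2 or B6 CBDL replicate 1, and 4 without B6 CBDL replicate 3. Without B6 CBDL replicate 1 the gene called was Ifi27, and neither Herc6 nor Dhx58 was called.

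Marker genes of other cell types also differed between the groups, and the part of such cells in these results was not tested. The mean log2 signal of 12 hepatocyte genes was 5.42 to 6.12 in sham and 9.12 to 9.68 in CBDL arrays of A/J mice, and 7.02 to 9.14 in sham and 9.28 to 9.56 in CBDL arrays of B6 mice. Averaged over both strains, 11 of these 12 were called higher after CBDL, where 1.12% of all probe sets were. For 15 measured T and NK cell genes it was 6.17 to 6.31, 6.13 to 6.23, 6.46 to 6.67 and 5.99 to 6.10 in the same order of groups, and 2 of them, Gzmb and Nkg7, which encode cytotoxic granule proteins, were called lower over both strains. All 15 were negative over both strains, 9 of them at an unadjusted p under 0.05. Of all probe sets, 0.616% were called lower over both strains. At an unadjusted p under 0.05, 6.15% of all probe sets were lower and 7.91% higher. In B6 mice alone all 15 T and NK cell genes were negative, 11 of them at that level, against 3.77% of all probe sets. Their median was -0.54 in B6 mice, and in A/J mice 9 were negative with a median of -0.08. For 12 macrophage and dendritic cell genes it was 5.98 to 6.35, 6.07 to 6.30, 6.22 to 6.26 and 6.03 to 6.09, with 0 called by limma (1 higher and 3 lower at an unadjusted p under 0.05). The 6 smooth muscle genes had means of 6.88 to 9.32 in A/J sham and 8.18 to 9.11 in A/J CBDL, and of 8.53 to 9.19 in B6 sham and 7.06 to 7.88 in B6 CBDL arrays. In B6 mice all 6 were lower at an unadjusted p under 0.05 (median -1.42), against 3.77% of all probe sets. In A/J mice all 6 were positive (median 0.29), 0 of them at that level, and limma called 0 in either strain. The tissue label was checked on 10 enterocyte genes, and the segment of intestine was not tested. The means of these 10 genes were high in every array, at 12.58 to 12.65, 12.52 to 12.54, 12.55 to 12.60 and 12.45 to 12.50. Of these, Lct, which encodes lactase, fell by 0.47 over both strains (adjusted p = 0.0303). At an unadjusted p under 0.05, 4 of the 10 were lower, against 6.15% of all probe sets. In such bulk tissue, fewer cells of a type and less RNA per cell cannot be told apart.

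Of the ISG15 conjugation genes, Herc6 fell over both strains, with the smallest p of all 37 genes, and Usp18 did not pass. ISG15 is a small ubiquitin-like protein that is attached to other proteins after interferon, and Herc6 is the ligase that attaches it in mice. Herc6 had log2 signals of 7.88, 7.95 and 8.15 in A/J sham and 7.05, 6.88 and 7.08 in A/J CBDL arrays, and of 7.56, 7.29 and 7.72 in B6 sham and 6.75, 7.06 and 6.31 in B6 CBDL arrays. The groups did not overlap in either strain. Herc6 fell by 0.90 on the log2 scale over both strains (standard error 0.13, adjusted p = 0.00655), which is 1.87-fold. In A/J mice it fell by 0.99 (standard error 0.18, adjusted p = 0.0316), and in B6 mice the difference was -0.81 (adjusted p = 0.162). Usp18, which removes ISG15 and also restrains the type I receptor, had signals of 7.07, 7.84 and 7.46 in A/J sham and 6.72, 6.56 and 6.06 in A/J CBDL arrays, and of 7.18, 6.66 and 7.02 in B6 sham and 6.82, 6.35 and 5.93 in B6 CBDL arrays. Its A/J groups were apart and its B6 groups overlapped through CBDL replicate 1, and the difference over both strains of -0.80 did not pass (adjusted p = 0.066). The A/J call of Herc6 ended when any of the 6 A/J arrays or B6 CBDL replicate 1 was left out, with a highest adjusted p of 0.125.

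**Figure D2:**
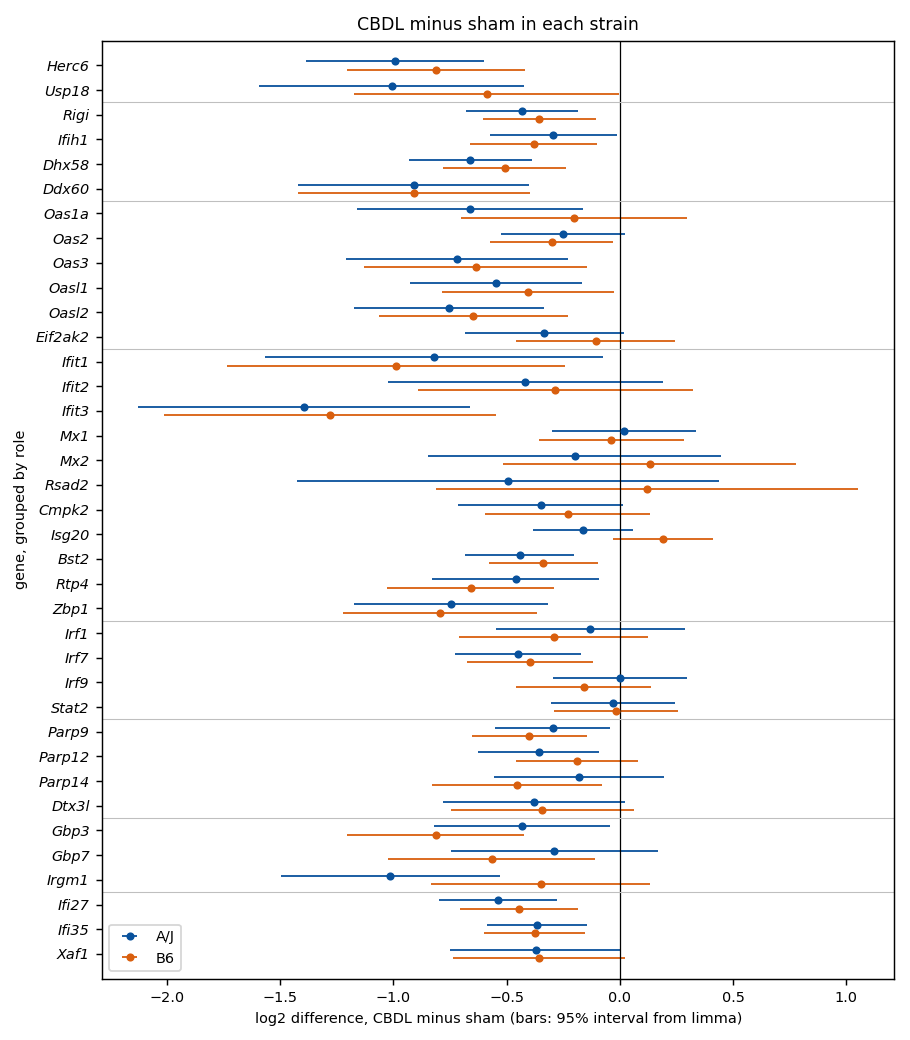
Log2 difference of CBDL minus sham (horizontal axis) for each of the 37 genes (vertical axis, in blocks by role), in A/J mice (blue) and B6 mice (orange), with 95% confidence intervals from limma. Ifit3 lies farthest to the left in both strains (-1.39 and -1.28), and Mx1, Stat2 and Irf9 lie near 0 in A/J mice.

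The RNA sensors detect viral RNA in the cytoplasm and start interferon production. Of the 4 measured, Dhx58, Ddx60 and Rigi fell over both strains and Ifih1 did not pass. Dhx58, which encodes LGP2, a regulator of the other sensors, had log2 signals of 5.92, 6.29 and 6.14 in A/J sham and 5.54, 5.37 and 5.46 in A/J CBDL arrays, and of 6.01, 5.98 and 6.12 in B6 sham and 5.52, 5.73 and 5.33 in B6 CBDL arrays. Every CBDL array was below every sham array in both strains. Dhx58 fell by 0.58 (standard error 0.09, adjusted p = 0.0095) over both strains and by 0.66 (standard error 0.12, adjusted p = 0.0366) in A/J mice, and B6 mice had a difference of -0.51 (adjusted p = 0.208). The A/J call ended when any A/J CBDL array, A/J sham replicate 2 or 3, B6 CBDL replicate 1, or B6 sham replicate 1 or 2 was left out, when only the 6 A/J arrays were fitted and with the replicate number as a block (highest adjusted p 0.15).

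Ddx60, a helicase that assists RNA sensing and whose promoter stretch held a pair of ISRE cores, had log2 signals of 8.79, 8.81 and 9.09 in A/J sham and 8.11, 8.28 and 7.56 in A/J CBDL arrays, and of 8.41, 8.15 and 8.74 in B6 sham and 7.46, 7.93 and 7.17 in B6 CBDL arrays. The groups were apart in both strains, with B6 CBDL replicate 3 the lowest array of all. Ddx60 fell by 0.91 (standard error 0.16, adjusted p = 0.0206) over both strains, with differences of -0.91 in A/J mice and -0.91 in the B6 strain. Rigi, the sensor of RNA with a free 5′ triphosphate, had signals of 8.64, 8.94 and 8.93 in A/J sham and 8.30, 8.51 and 8.40 in A/J CBDL arrays, and of 8.65, 8.70 and 8.68 in B6 sham and 8.27, 8.51 and 8.19 in B6 CBDL arrays. These groups did not overlap either, and Rigi fell by 0.39 (standard error 0.08, adjusted p = 0.0357). Ifih1, which encodes MDA5, the sensor of long double-stranded RNA, had a difference of -0.29 (adjusted p = 0.333) in A/J and -0.38 (adjusted p = 0.437) in B6 mice.

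Oligoadenylate synthetases make the messenger that activates RNase L, and Eif2ak2 encodes PKR, the kinase that stops translation when double-stranded RNA is present. Oasl2, an enzyme-active relative of the family in mice, was the single gene of 6 measured here that fell over both strains. Oasl2 had log2 signals of 8.94, 9.28 and 8.99 in A/J sham and 8.32, 8.41 and 8.22 in A/J CBDL arrays, and of 8.93, 8.57 and 8.82 in B6 sham and 8.05, 8.58 and 7.74 in B6 CBDL arrays. The A/J groups were apart, and B6 CBDL replicate 2 reached the level of B6 sham replicate 2. Oasl2 fell by 0.70 (standard error 0.13, adjusted p = 0.0278), a call that ended without 8 of the 12 arrays, taken 1 at a time. Oas3 had a difference of -0.68 (adjusted p = 0.0622) over both strains, Oasl1 -0.48 (adjusted p = 0.092), Oas1a -0.43 (adjusted p = 0.247), Oas2 -0.28 (adjusted p = 0.174) and Eif2ak2 -0.22 (adjusted p = 0.421). All 6 had negative differences in both strains, and for all 6 the A/J CBDL arrays lay below the A/J sham arrays. The Oas1 genes are near-identical copies, so the Oas1a probe set may also read its relatives.

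Antiviral effectors held both the largest and the smallest difference over both strains, those of Ifit3 and Mx1. Of 11 measured, Ifit3, Zbp1, Bst2 and Rtp4 fell over both strains and 7 did not pass. Ifit3, which binds other IFIT proteins that capture foreign RNA, had log2 signals of 6.70, 7.09 and 6.59 in A/J sham and 5.72, 5.47 and 5.01 in A/J CBDL arrays, and of 7.33, 6.71 and 7.40 in B6 sham and 6.40, 6.15 and 5.04 in B6 CBDL arrays. The groups were apart in both strains, and A/J CBDL replicate 3 and B6 CBDL replicate 3 were the lowest. Ifit3 fell by 1.34 (standard error 0.24, adjusted p = 0.0183) over both strains, a 2.53-fold decrease, with -1.39 (adjusted p = 0.0914) in A/J and -1.28 (adjusted p = 0.259) in B6 mice. The call ended without A/J sham replicate 2 or B6 sham replicate 1 (adjusted p up to 0.0597). Ifit3b is a close copy, so this probe set may read both genes.

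Zbp1, a sensor of Z-form nucleic acid that starts necroptosis, had log2 signals of 6.73, 6.96 and 6.83 in A/J sham and 5.87, 6.27 and 6.15 in A/J CBDL arrays, and of 6.94, 6.63 and 7.28 in B6 sham and 6.37, 6.33 and 5.77 in B6 CBDL arrays, with no overlap in either strain. Zbp1 fell by 0.77 (standard error 0.14, adjusted p = 0.0199) over both strains. Bst2, also called tetherin, holds budding virus at the cell surface, and it had signals of 7.55, 7.59 and 7.49 in A/J sham and 7.05, 7.06 and 7.19 in A/J CBDL arrays, and of 7.52, 7.12 and 7.14 in B6 sham and 6.90, 6.93 and 6.94 in B6 CBDL arrays. The 3 B6 CBDL arrays lay within a narrow range below all others, and B6 sham replicate 1 stood above the other B6 sham arrays. Bst2 fell by 0.39 (standard error 0.08, adjusted p = 0.0332). Rtp4, a chaperone of receptors that is induced by type I interferon, was lower in every CBDL array in both strains and fell by 0.56 (standard error 0.12, adjusted p = 0.0432), a call that ended on omitting any 1 of 10 arrays (adjusted p up to 0.11). Its group means were 8.27 ± 0.04 after sham surgery and 7.81 ± 0.28 after CBDL in A/J mice, and 7.92 ± 0.10 and 7.26 ± 0.32 in B6 mice (SD, n = 3).

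The 7 effectors that did not pass were mixed. Ifit1, which binds RNA that lacks a host cap, had a difference of -0.82 (adjusted p = 0.307) in A/J and -0.99 (adjusted p = 0.452) in B6 mice, and Cmpk2, a nucleotide kinase next to Rsad2 in the genome, had a difference of -0.35 (adjusted p = 0.374) and -0.23 (adjusted p = 0.864). Rsad2 encodes viperin, which makes a chain-terminating nucleotide, and it had log2 signals of 5.66, 6.64 and 6.07 in A/J sham and 5.75, 5.37 and 5.78 in A/J CBDL arrays, and of 5.87, 5.19 and 5.94 in B6 sham and 6.92, 5.22 and 5.22 in B6 CBDL arrays. The B6 CBDL group was split, since replicate 1 was the highest array of the 12 and replicates 2 and 3 were at the level of the lowest sham array. Mx2 was split the same way, with 5.09, 3.87 and 3.76 in the B6 CBDL arrays, and so was Ifit2, with 5.51, 4.66 and 4.40. Mx1, a GTPase that blocks influenza virus and is defective in many laboratory strains, had differences of 0.02 and -0.04. Its group means ranged less than those of any other of the 37 genes. The mean of Mx1 over the 12 arrays was 4.43, below the array medians, so a change could be missed. Isg20, an RNA exonuclease, had a difference of -0.16 (adjusted p = 0.505) in A/J and 0.19 (adjusted p = 0.732) in B6 mice.

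**Figure D3:**
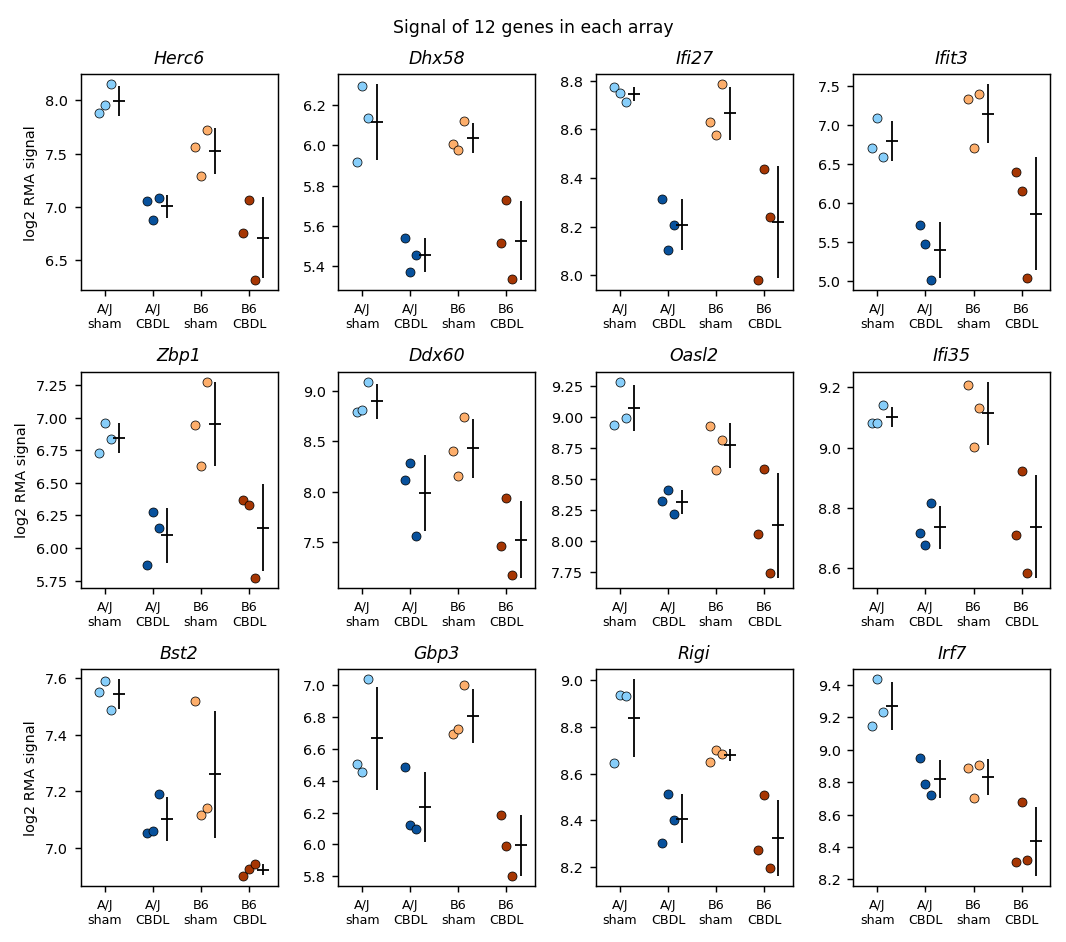
Log2 RMA signal (vertical axes, each with its own range) in each array of the 4 groups, for the 12 genes with the smallest p-values over both strains; points are arrays, and black ticks and bars are the mean and SD of 3 arrays. CBDL arrays lie below the sham arrays of their strain for 10 of the 12 genes in both strains, while Gbp3 overlaps in A/J and Oasl2 in B6 mice.

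Transcription factors of the pathway did not move together. Irf7, which amplifies type I interferon production and is itself induced by it, had log2 signals of 9.15, 9.43 and 9.23 in A/J sham and 8.95, 8.79 and 8.72 in A/J CBDL arrays, and of 8.89, 8.70 and 8.91 in B6 sham and 8.30, 8.68 and 8.32 in B6 CBDL arrays. The CBDL arrays were below the sham arrays in each strain, by little in B6 mice, where CBDL replicate 2 nearly reached sham replicate 2. Irf7 fell by 0.42 (standard error 0.09, adjusted p = 0.042) over both strains. This call was lost on omitting 1 array in 10 of 12 cases, on subtracting each array's median and with the replicate number as a block (adjusted p 0.0129 to 0.114 over all alternatives). Irf9 and Stat2, the DNA-binding and the transactivating part of ISGF3, had differences over both strains of -0.08 (95% interval -0.29 to 0.13) and -0.02 (95% interval -0.22 to 0.17). Irf1, which acts downstream of interferon gamma, had a difference of -0.21 (adjusted p = 0.532), and a further probe set exists for this gene.

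The PARP proteins Parp9, Parp12 and Parp14 attach ADP-ribose to proteins, and Dtx3l is the ubiquitin ligase partner of Parp9. None of these 4 was called, and all 4 had negative differences in both strains. Over both strains Parp9 had a difference of -0.35 (adjusted p = 0.0629), Parp12 -0.27 (adjusted p = 0.171), Parp14 -0.32 (adjusted p = 0.257) and Dtx3l -0.36 (adjusted p = 0.233). For Parp9 every CBDL array was below every sham array in both strains, with signals of 8.56, 8.60 and 8.55 in A/J sham and 8.24, 8.27 and 8.31 in A/J CBDL arrays.

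Interferon-inducible GTPases act on the vacuoles of intracellular pathogens and answer to interferon gamma. Of the 3 measured, Gbp3 fell over both strains and Gbp7 and Irgm1 did not pass. Gbp3 had log2 signals of 6.50, 6.46 and 7.04 in A/J sham and 6.49, 6.12 and 6.10 in A/J CBDL arrays, and of 6.69, 6.72 and 7.00 in B6 sham and 6.19, 5.99 and 5.80 in B6 CBDL arrays. The B6 groups were apart, whereas in A/J mice CBDL replicate 1 lay within the sham range. Gbp3 fell by 0.62 (standard error 0.12, adjusted p = 0.035), with -0.43 (adjusted p = 0.303) in A/J mice and -0.81 (adjusted p = 0.153) in B6 mice, the smallest p of any listed gene in B6. The call over both strains ended without any 1 of 8 arrays. Irgm1, a regulator of the other GTPases and of autophagy, had signals of 7.03, 7.22 and 7.10 in A/J sham and 6.16, 6.17 and 5.98 in A/J CBDL arrays, and of 6.76, 6.65 and 7.45 in B6 sham and 6.85, 6.80 and 6.17 in B6 CBDL arrays. Its A/J groups were far apart at -1.01 (adjusted p = 0.0662), and its B6 groups overlapped at -0.35 (adjusted p = 0.815). Gbp7 had a difference of -0.29 (adjusted p = 0.574) in A/J and -0.57 (adjusted p = 0.5) in B6 mice.

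Of the remaining genes, Ifi27 and Ifi35 fell over both strains and Xaf1 did not pass. Ifi27, a mitochondrial protein that is strongly induced by type I interferon, had log2 signals of 8.77, 8.75 and 8.71 in A/J sham and 8.31, 8.10 and 8.21 in A/J CBDL arrays, and of 8.63, 8.58 and 8.79 in B6 sham and 7.98, 8.44 and 8.24 in B6 CBDL arrays. The groups were apart in both strains and the arrays of each A/J group lay close together. Ifi27 fell by 0.49 (standard error 0.08, adjusted p = 0.0159), and the call held in all 20 alternatives (adjusted p 0.00372 to 0.0497). Ifi35, which binds Nmi, had signals of 9.08, 9.08 and 9.14 in A/J sham and 8.72, 8.68 and 8.82 in A/J CBDL arrays, and group means of 9.11 ± 0.10 and 8.74 ± 0.17 in B6 mice (SD, n = 3). Its groups did not overlap in either strain, and it fell by 0.37 (standard error 0.07, adjusted p = 0.0288). Xaf1, which promotes apoptosis, had a difference of -0.37 (adjusted p = 0.197) over both strains.

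Whether the strains responded differently was tested as the interaction, the A/J difference minus the B6 difference. The limma interaction called 0 of the 37 genes in either direction, where 0.0309% of all probe sets were called higher and 0.00562% lower. At an unadjusted p under 0.05, 0 of the 37 were higher and 1 was lower, against 3.76% and 3.12% of all probe sets. That gene was Isg20, with an interaction of -0.35 (95% interval -0.67 to -0.04, adjusted p = 0.691). Irgm1 followed with -0.66 (95% interval -1.35 to 0.02, adjusted p = 0.738), Gbp3 with 0.38 (adjusted p = 0.821) and Oas1a with -0.46 (adjusted p = 0.834). For Irgm1 the interval reaches past the size of its response over both strains (-0.68), so that unequal responses remain possible. The median interaction was -0.08 and turned positive without A/J sham replicate 2 (0.02), B6 CBDL replicate 2 (0.04) or B6 sham replicate 2 (0.06).

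A/J and B6 mice were next compared after each operation, which uses the same arrays as the responses above. In sham mice 2 of the 37 genes were called, Cmpk2 and Oas1a, both higher in A/J, where 0.579% of all probe sets were called higher. At an unadjusted p under 0.05, 7 were higher and 1 lower, against 6.25% and 9.12%. Every A/J sham array was above every B6 sham array for 10 genes (27.0%, background 9.15%). Cmpk2 had log2 signals of 7.99, 8.39 and 7.94 in A/J sham and 7.10, 7.50 and 7.47 in B6 sham arrays, a difference of 0.75 (standard error 0.17, adjusted p = 0.0483). The Oas1a signals were 7.49, 7.80 and 7.86 in A/J sham and 6.81, 6.24 and 7.03 in B6 sham arrays, a difference of 1.02 (standard error 0.23, adjusted p = 0.0495). Ifih1 went the other way, with 8.19, 8.19 and 8.51 in A/J and 8.93, 8.62 and 9.04 in B6 sham arrays and a difference of -0.57 (adjusted p = 0.0524), and Irf7 had a difference of 0.44 (adjusted p = 0.127). Whether bases that differ between the strains alter probe binding was not tested.

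Both calls were marginal. The count became 0 without A/J CBDL replicate 1, 2 or 3, A/J sham replicate 1 or 2, B6 CBDL replicate 1 or B6 sham replicate 1, and 1 without B6 CBDL replicate 2, B6 sham replicate 2 or B6 sham replicate 3. Without B6 sham replicate 2 the gene called was Ifih1, lower in A/J mice. After CBDL the limma comparison called 0 of the 37 genes, where 0.562% of all probe sets were called higher and 1.22% lower in A/J mice. At an unadjusted p under 0.05, 5 were higher and 3 lower, against 5.72% and 7.96%. The smallest p-values were those of Cmpk2 at 0.63 (adjusted p = 0.095), Ifih1 at -0.48 (adjusted p = 0.0996), Rtp4 at 0.55 (adjusted p = 0.154) and Irf7 at 0.39 (adjusted p = 0.186). The median difference between strains was 0.14 in sham and 0.09 in CBDL mice. The latter was near 0 without B6 CBDL replicate 3 (-0.0011).

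**Figure D4:**
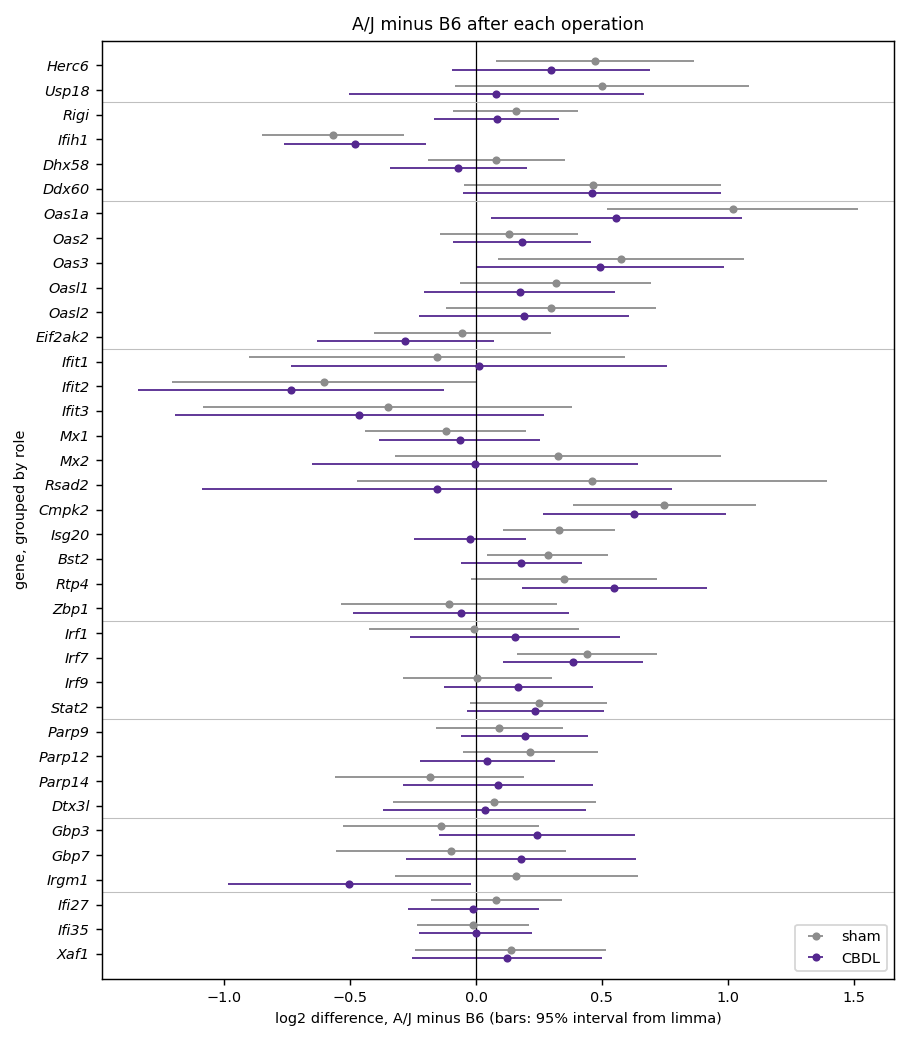
Log2 difference of A/J minus B6 (horizontal axis) for each of the 37 genes (vertical axis, in blocks by role), in sham mice (gray) and CBDL mice (purple), with 95% confidence intervals from limma. Oas1a and Cmpk2 lie to the right in sham mice (1.02 and 0.75), Ifih1 lies to the left after both operations, and most other intervals cross 0.

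Genes upstream of the interferon response were listed separately by role. Of 9 interferon ligand genes, 6 receptor genes, 8 measured genes of JAK-STAT signaling and its inhibitors, and 12 sensing adaptors and IRFs, limma called 0 after CBDL in A/J mice, in B6 mice or over both strains. Of all probe sets, 0.616% were called lower and 1.12% higher over both strains. Several ligands were dim, with means over the 12 arrays of 3.03 for Ifnb1 and 4.14 for Ifng, beside array medians of 5.36 to 5.51. Without a detection call, a change in such genes could be missed. At an unadjusted p under 0.05 over both strains, 2 receptor genes were higher and 2 adaptors or IRFs were lower, of 35 genes in all, where 7.91% of all probe sets were higher and 6.15% lower. The genes detailed here were not called and lie outside the naming rule given below. Tlr3 had group means of 7.31 after sham surgery and 6.75 after CBDL in A/J mice, and 7.16 and 6.73 in B6 mice. Irf8 had 8.18 and 7.79 in A/J mice, and 8.16 and 7.85 in B6 mice. The Ifnar1 means were 7.83 and 7.90 in A/J mice, and 7.70 and 8.04 in B6 mice. Ifnar2, a chain of the type I receptor, had a difference of 0.58 (adjusted p = 0.124) in A/J and 0.31 (adjusted p = 0.71) in B6 mice. Ifnlr1, the specific chain of the type III receptor, had log2 signals of 6.62, 6.95 and 6.85 in A/J sham and 7.28, 7.43 and 7.16 in A/J CBDL arrays, and of 7.09, 7.17 and 6.95 in B6 sham and 6.65, 6.89 and 6.92 in B6 CBDL arrays. The CBDL arrays were above the sham arrays in A/J mice and below them in B6 mice, at 0.48 (adjusted p = 0.102) and -0.25 (adjusted p = 0.682), with an interaction of 0.73 (adjusted p = 0.42). Jak1 had differences of -0.02 and -0.01, and Tyk2 0.00 and -0.03, both kinases of the interferon receptors.

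**Figure D5:**
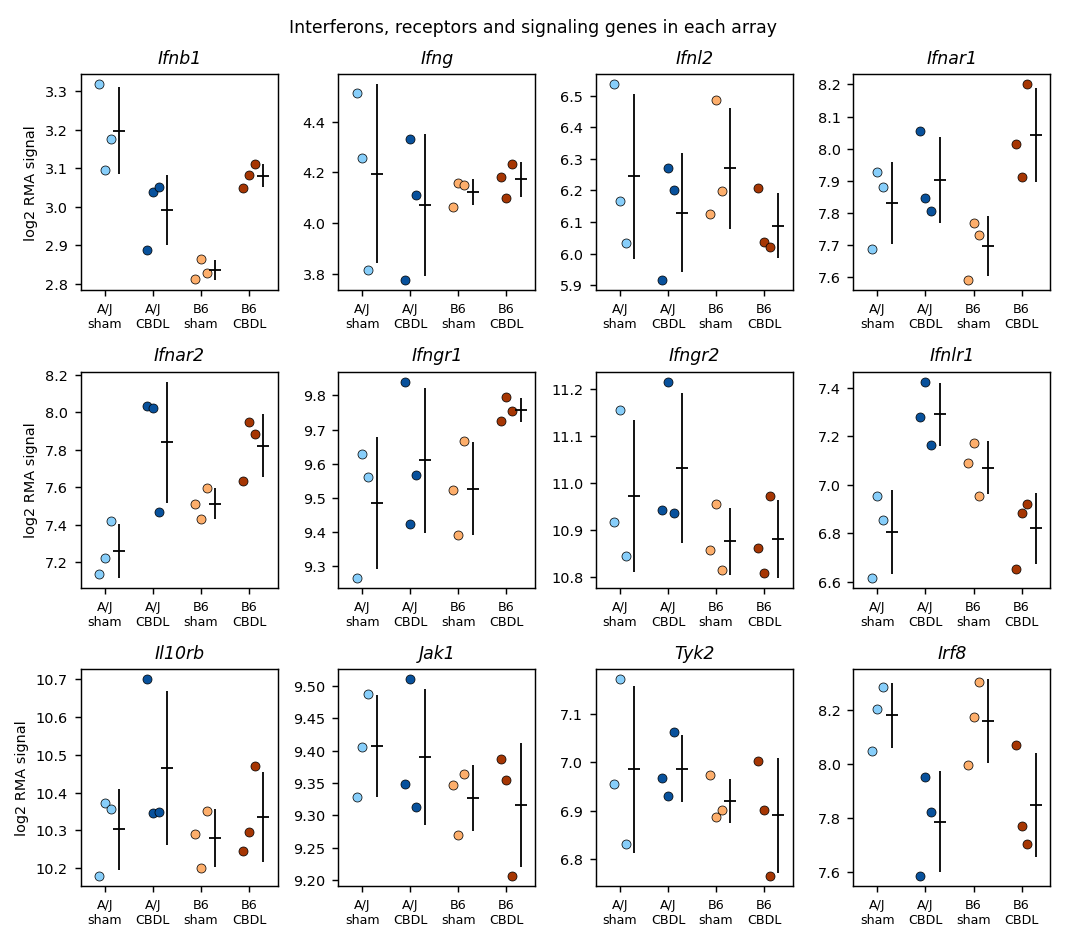
Log2 RMA signal (vertical axes, each with its own range) of interferon ligands, receptors, kinases and Irf8 in each array of the 4 groups; points are arrays, and black ticks and bars are the mean and SD of 3 arrays. Ifnar2 lies higher in CBDL than in sham arrays of both strains, Ifnlr1 lies higher after CBDL in A/J and lower in B6 mice, and none of these genes was called by limma.

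A further list of 43 interferon-induced genes that are not among the 37 had 35 measured, of which 3 fell over both strains, 0 rose and 32 did not pass, where 0.616% of all probe sets were called lower and 1.12% higher. Samhd1, which depletes nucleotides that viruses need, fell by 0.45 (standard error 0.07, adjusted p = 0.0095). Lgals3bp, a secreted glycoprotein, fell by 0.48 (standard error 0.08, adjusted p = 0.015), and by 0.62 (standard error 0.11, adjusted p = 0.0321) in A/J mice. Nmi, the partner of Ifi35, fell by 0.42 (standard error 0.09, adjusted p = 0.0409). The median difference of this list was -0.16 over both strains, against -0.01 over all probe sets, with 28 of the 35 negative. In A/J mice 3 of the 35 were higher at an unadjusted p under 0.05 and 6 lower, against 7.88% and 6.30% of all probe sets. Higher genes were thus about as frequent as among all probe sets. The 3 higher in A/J mice were Ifitm1, Ifitm2 and Ifitm3, which block viral entry, with differences of 0.65 (adjusted p = 0.223), 0.34 (adjusted p = 0.296) and 0.46 (adjusted p = 0.201). In B6 mice 0 of the 35 were higher at that level. The B6 means of these 3 were 7.55, 8.58 and 9.07 after sham surgery and 7.73, 8.64 and 8.855 after CBDL, so Ifitm3 was lower there. Between strains, Ifi44l was higher in A/J mice, by 1.49 in sham (adjusted p = 0.00175) and by 0.98 in CBDL mice (adjusted p = 0.0188).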

How the data were processed

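Jejunum RNA of 12 mouse samples was measured on Affymetrix arrays, 3 for each of 4 groups of strain and operation. The deposited values are log2 signals that the authors made with RMA in Affymetrix Expression Console per the labels, whereas the methods of the study name GCRMA, and no source used here gives versions. They were used as deposited. No background, detection or scan information was available in the table, so dim genes carry no detection call. Precision is set by the number of arrays.

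The platform annotation pairs 21789 of the 35556 probe sets with a single gene symbol, 1621 with several and 12146 with none, and older symbols were updated through gene identifiers. Groups were taken from the labels and numbered as there. limma 3.58.1 in R 4.3.3 was fitted on all probe sets with 1 mean per group over all 12 arrays (lmFit, contrasts.fit and eBayes), with Benjamini-Hochberg adjustment over all 35556 probe sets within each comparison and a threshold of adjusted p under 0.05. The fit was tested on simulated data with independent noise for the A/J comparison over 35556 probe sets. It recovered 73 of 100 probe sets changed 2-fold and 96 of 100 changed 4-fold, with 12 false calls. The changed probe sets were drawn from those above the median signal, so recovery of dim genes and of smaller changes was not tested. Replicates with the same number did not consistently deviate together (r from -0.31 to 0.36), so no pairing was used. Between the A/J and B6 sham arrays r was 0.12, 0.03 and 0.36 for replicates 1, 2 and 3.

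The genes examined and the lists of related genes and cell type markers were chosen with earlier results of these data known. In each comparison the called genes were described, at most 12 by smallest p, or the 4 with the smallest p where fewer than 4 were called. In each role group the genes with the highest and lowest mean were added, with the 3 largest and 3 smallest ranges of group means, and the 13th call, Rtp4, was named after its value was seen. Promoter stretches were shown for at most 6 of the genes so named whose window held a motif, from RefSeq windows on GRCm38.p6. Alternatives covered the arrays in the fit, a filter on the dimmest 30% of probe sets, single-symbol probe sets only, quantile normalization, median subtraction, a trended robust prior, the mean of a gene's probe sets, array weights, the replicate number as a block and leaving out each array.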

Additional observations from a re-analysis of the deposited data

How the results depend on the processing

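The medians over the 37 genes kept their direction under every alternative for the responses to CBDL and for the strain comparison in sham mice, and no single gene named for a comparison changed direction. The median interaction and the median strain difference after CBDL, both near 0, changed sign when certain arrays were left out, with ranges of -0.14 to 0.06 and -0.0011 to 0.17. When each array was left out in turn, the median lay between -0.50 and -0.38 in A/J mice, between -0.47 and -0.30 in B6 mice and between -0.43 and -0.36 over both strains. Counts of called genes moved more. Leaving out each array gave 0 to 4 called genes in A/J mice, 3 to 13 over both strains and 0 to 2 between strains in sham mice. Testing single-symbol probe sets alone gave 9 in A/J mice, 2 in B6 mice and 20 over both strains. It gave 3 between strains in sham mice and 1 after CBDL, and the cause of the higher counts was not tested. Array weights gave 14, 1 and 21 for the same responses, 4 between strains in sham mice and 1 after CBDL; the cause was not tested. Fitting only the 6 arrays compared gave 0 between strains in sham mice and 2 in A/J mice, Herc6 and Irgm1 in place of Dhx58, with fewer arrays to estimate the spread, and has no value for the interaction or the average. The replicate number was also fitted as a block, although it did not consistently pair the arrays. This gave 0 called genes in A/J mice, 0 between strains in sham mice and 6 over both strains. Quantile normalization gave 3 in A/J mice, 17 over both strains and 3 between strains in sham mice. The filter on the dimmest probe sets gave the same counts. The trended robust prior gave 3 between strains in sham mice, and median subtraction gave 12 over both strains. Counts not given here equalled those of the main fit, and every median stayed within the spread between replicates. With 3 arrays a group and no detection call, a difference of the size of the smaller ones here could be missed.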
